A study of Mus musculus with 3 samples.

Results

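The genes described here encode the nuclear subunits of mitochondrial oxidative phosphorylation, and they were read from ribosome-bound RNA of adult mouse cerebral cortex. They were chosen by symbol alone, taking every gene named as a lettered and numbered Nduf subunit, an Sdh subunit, a Uqcr subunit, a Cox4 to Cox8 subunit or an Atp5 subunit. The rule found 83 of the 32531 genes in the deposited tables: 36 of complex I, 4 of complex II, 8 of complex III, 18 of complex IV and 17 of complex V, the ATP synthase. It used no measured value. It left out related genes with other names, among them Ndufab1, Cyc1 and the assembly factors, and it kept Ndufa4, long assigned to complex I and now regarded as a complex IV subunit. It also kept Atp5s and Atp5sl, which are named after ATP synthase without being among its classical subunits.

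The study used 1 group: 3 immunopurified libraries, replicates 1 to 3, from untreated C57BL/6J mice that carry the transgene Kcnip2-EGFP/Rpl10a (line NIDA115). In this line an EGFP tag on the ribosomal protein Rpl10a is produced from a Kcnip2-driven transgene, and tagged polysomes are pulled down with antibodies against EGFP (translating ribosome affinity purification, TRAP). The labels do not say whether the libraries came from separate animals, so all errors and p-values below measure the spread between these 3 samples, which may be technical. No unpurified cortex or other line was analysed here, so a level describes the purified RNA and not an enrichment over the tissue.

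The libraries held 11602248, 13635132 and 14174384 counts in genes, for replicates 1, 2 and 3. Kcnip2 itself was present at 189, 155 and 148 CPM (counts per 1000000 scaled gene counts). The 5 pan-neuronal markers were all detected, at 36831 to 42768 CPM in sum, mostly from 1 gene with a mean of 33508 CPM. Microglial markers, in contrast, summed to 23.1 to 45.9 CPM and endothelial markers to 6.74 to 11.9 CPM. Astrocyte markers were not absent, at 1105 to 1728 CPM in sum, nor were oligodendrocyte markers, at 479 to 659 CPM, and all genes of both lists were detected. The material was a bulk immunoprecipitate, in which fewer cells of a type and less RNA per cell cannot be told apart.

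Complexes I and II pass electrons from NADH and succinate to coenzyme Q, complex III hands them on through cytochrome c to complex IV, and complex IV reduces oxygen. Complexes I, III and IV pump protons across the inner membrane, and the ATP synthase uses the return flow to make ATP. Cortical neurons draw most of their ATP from this pathway, and fast-spiking interneurons are known for a particularly high demand. Except in complex II, each complex combines nuclear subunits with subunits encoded in mitochondrial DNA, which have no part in these values.

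Nearly the whole nuclear set was detected in the purified RNA. Of the 83 genes, 76 reached 1 CPM in all 3 libraries, a level that 37.3% of all genes in the tables reached. All 36 complex I genes, all 4 complex II genes and all 8 complex III genes did so. In complex V, 16 of 17 did, and in complex IV 12 of 18. The 7 genes below 1 CPM in some library were Atp5g2 and 6 tissue-restricted isoforms of complex IV, described with their complexes.

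Levels of different genes are compared here per kilobase of transcript, since a longer RNA gives more reads. The main length is the union of all annotated exons of a gene; because this runs long for genes with retained introns, the annotated principal protein-coding transcript is given beside it. Of the 83 genes, 77 passed the count filter that the comparisons need. Their median was 5.39 log2 CPM per kilobase of union exon, against 2.19 for all genes past the filter. The difference was 3.20 ± 0.18 log2 units (SD, n = 3 libraries), and it was 3.13 ± 0.21 log2 units with the principal transcript. On the principal-transcript scale, 74 of the 77 lay above the median gene (background 50%) and 51 lay in the top 10% of genes (background 10%). Part of this gap comes from dividing by length, since the median principal transcript was 865 bases among the 77 genes and 3238 bases among all genes past the filter. In log2 CPM with no length correction the members' median exceeded that of all genes by 1.59 ± 0.16.

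The 83 genes together took 1.17%, 1.05% and 1.01% of all gene counts in replicates 1, 2 and 3. Complex V held 59.6% ± 1.99 of those counts (SD, n = 3), complex I 18.7% ± 0.946, complex IV 11.7% ± 1.23, complex III 5.80% ± 0.0631 and complex II 4.29% ± 0.267. Atp5b alone accounted for 36.1% ± 1.79 of the counts of all 83 genes.

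**Figure D1:**
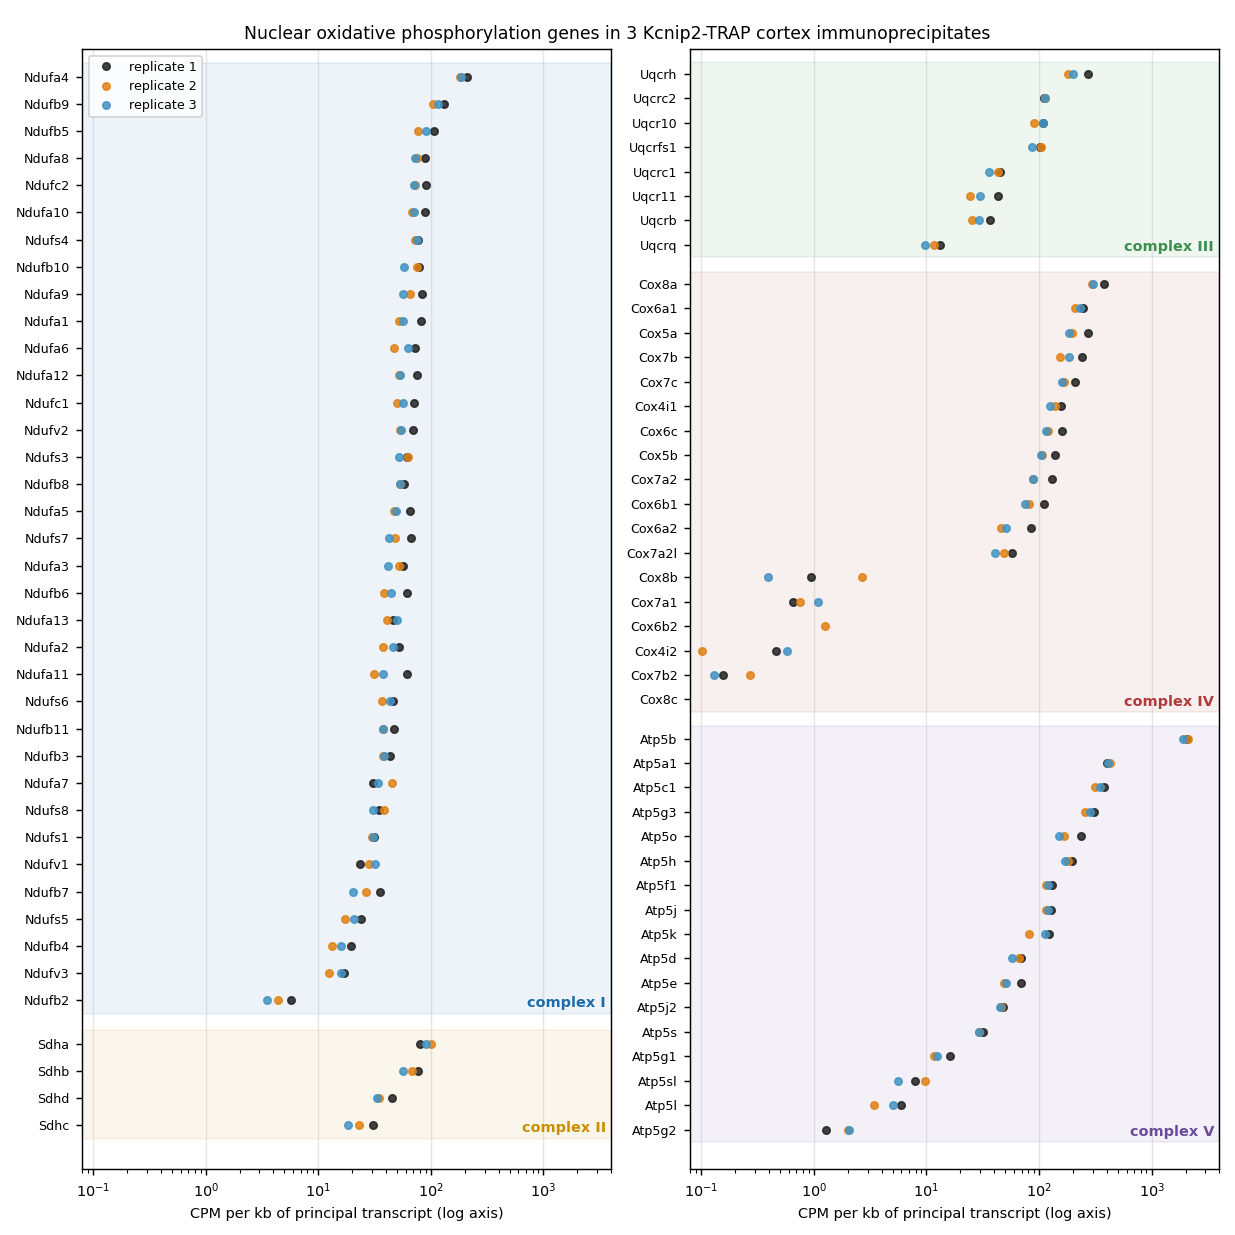
Level of 82 of the 83 genes in CPM per kilobase of principal transcript (log axis), by respiratory complex and ordered by mean within it; each point is 1 of the 3 libraries, and libraries with 0 counts have no point. Atp5b stands at the top with a mean of 2026, and 6 complex IV isoforms sit near or below 1.

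Of the 5 complexes, complex IV had the highest median level per kilobase and complex V the next, and these places held in each of the 3 libraries. Among genes that share under 10% of their sequence with other genes, however, complex III (6.24 ± 0.15) came before complex V (5.76 ± 0.17) and close to complex IV (6.27 ± 0.30), in log2 CPM per kilobase of union exon. The median over the 12 complex IV genes past the filter was 6.15 ± 0.28 log2 CPM per kilobase of union exon (SD, n = 3). For the 17 genes of complex V it was 5.51 ± 0.13, for the 8 of complex III 5.36 ± 0.27, for the 36 of complex I 5.29 ± 0.17 and for the 4 of complex II 5.15 ± 0.22. The medians of complexes V and III differed by less than the spread between libraries, as did those of complexes III, I and II, whose order changed between libraries. With the principal transcript the medians were 7.08 ± 0.20 for complex IV, 6.71 ± 0.31 for complex V, 5.95 ± 0.13 for complex III, 5.72 ± 0.20 for complex I and 5.64 ± 0.22 for complex II, in the same order.

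The ATP synthase head, which carries the catalytic sites, held the most abundant genes of the set. Atp5b, the catalytic beta subunit (chr10:128083273-128090391, plus strand, mm10), had 3963, 4006 and 3678 CPM. Its level of 2026 ± 93.0 CPM per kilobase of principal transcript ranked 7 of the 12103 genes past the filter that had a length. Atp5a1, the alpha subunit that alternates with beta in the head, had 992, 1053 and 1006 CPM, and Atp5c1, the gamma subunit of the central stalk, had 438, 367 and 406 CPM. The 3 libraries lay close together for each of these genes. The ratio of Atp5a1 to Atp5b was -1.50 ± 0.06 log2 units per kilobase of union exon and -2.30 ± 0.06 per kilobase of principal transcript, lower for Atp5a1 in all 3 libraries. The other central stalk subunits were lower, Atp5d (delta) at 64.0 ± 5.91 and Atp5e (epsilon) at 56.4 ± 10.6 CPM per kilobase of principal transcript.

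The 4 subunits of the peripheral stalk, which holds the head still against the rotor, lay in a band whose width depended on the length used. Atp5o (OSCP), Atp5h (d), Atp5f1 (b) and Atp5j (coupling factor 6) had means from 121 to 184 CPM per kilobase of principal transcript. Per kilobase of union exon their means ran from 31.3 for Atp5j to 84.4 for Atp5h.

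The rotor ring of the ATP synthase is built from the c subunit, and the 3 genes Atp5g1, Atp5g2 and Atp5g3 encode the same mature protein behind different targeting sequences. Their levels were far apart. Atp5g3 had 223, 185 and 204 CPM, Atp5g1 had 76.1, 54.8 and 58.0 CPM, and Atp5g2 had 0.938, 1.47 and 1.49 CPM, from 11, 20 and 21 counts. No library of one gene overlapped with any library of another. Per kilobase of principal transcript, Atp5g3 made up 94.9% ± 0.257 of the sum of the 3 genes (SD, n = 3), and per kilobase of the shortest principal transcript 72.6% ± 1.72. The ratio of Atp5g1 to Atp5g3 was -2.88 ± 0.14 log2 units per kilobase of union exon, but the principal transcripts of Atp5g1 run from 596 to 4715 bases; Atp5g1 was 21.3-fold lower counted on the longest and 2.72-fold lower counted on the shortest, with the same sign in all 3 libraries. For Atp5g2 over Atp5g3 the log2 ratio per kilobase of union exon was -6.77 ± 0.46.

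The count for Atp5g2 has a limit that lies in its sequence. Of all 50-base stretches of its principal transcript, 87.4% also occur in another annotated gene, chiefly in the processed pseudogene Gm10175. Reads from such stretches map to more than 1 place, and reads that did not align uniquely were left out of the gene counts. To show this, 60 coding bases are printed for the 3 functional genes and for the same stretch of the pseudogene, 5′ to 3′ on the coding strand (mm10, GENCODE transcripts); the window opens 228 bases before the end of the coding sequence, in the part that encodes the mature protein. Capitals mark bases that differ from Atp5g2.
Atp5g2: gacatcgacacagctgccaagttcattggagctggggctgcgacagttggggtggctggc
Gm10175: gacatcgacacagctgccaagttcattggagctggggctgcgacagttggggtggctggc
Atp5g1: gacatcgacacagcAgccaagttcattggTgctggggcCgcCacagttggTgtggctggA
Atp5g3: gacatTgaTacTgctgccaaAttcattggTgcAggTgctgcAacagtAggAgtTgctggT
The pseudogene copy had 0 differences from Atp5g2 over these 60 bases, while Atp5g1 had 6 and Atp5g3 had 12. Over the whole 228 bases Atp5g1 differed at 34 positions and Atp5g3 at 49, so reads from these genes can be told apart. Atp5g3, whose principal transcript shares no 50-base stretch with another gene, does not carry this limit. How many reads Atp5g2 lost in this way was not tested.

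Atp5l, the small g subunit of the membrane part, was another low gene of complex V, with 3.24, 1.84 and 2.77 CPM from 38, 25 and 39 counts. It stood well below its neighbours in the membrane, Atp5k (e) at 106 ± 21.7 and Atp5j2 (f) at 46.3 ± 1.10 CPM per kilobase of principal transcript, at 4.81 ± 1.31 on the same scale. Of its 50-base stretches, 84.8% recur in other genes, and 12 annotated pseudogenes share some of them. The opening of its coding sequence, shown beside that of the pseudogene Gm10221, gives an instance.
Atp5l: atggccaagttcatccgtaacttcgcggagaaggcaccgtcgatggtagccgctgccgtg
Gm10221: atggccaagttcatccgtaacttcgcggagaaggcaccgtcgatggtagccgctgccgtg
These 60 bases are identical. The values of Atp5g2 and Atp5l are therefore uncertain, and they were the only 2 of the 77 genes past the filter with over 80% of their stretches shared. Low levels were not confined to them. Atp5sl, with 0% of its stretches shared, had 7.69 ± 2.03 CPM per kilobase of principal transcript.

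Sharing was common in the set at lower degrees. Of the 77 genes, 29 (37.7%) shared at least 10% of their 50-base stretches with another gene, against 17.8% of all genes past the filter, and 31 shared none. Across these genes the shared part and the level per kilobase of principal transcript had a Spearman rho of 0.02, against -0.02 over all genes; genes are not independent replicates, and this describes the transcripts only. Cox7c, with 53.0% of its stretches shared, still had 178 ± 25.8 CPM per kilobase of principal transcript. Stretches were counted on either strand and against every other annotated gene, and overlapping genes were not left out. For Atp5o, with 50.3% shared, the partner with most shared stretches was another entry named Atp5o. Uqcrc2 shared 24.8% with 1 other gene and 0 pseudogenes. The shared part therefore does not measure how many reads were lost.

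**Figure D2:**
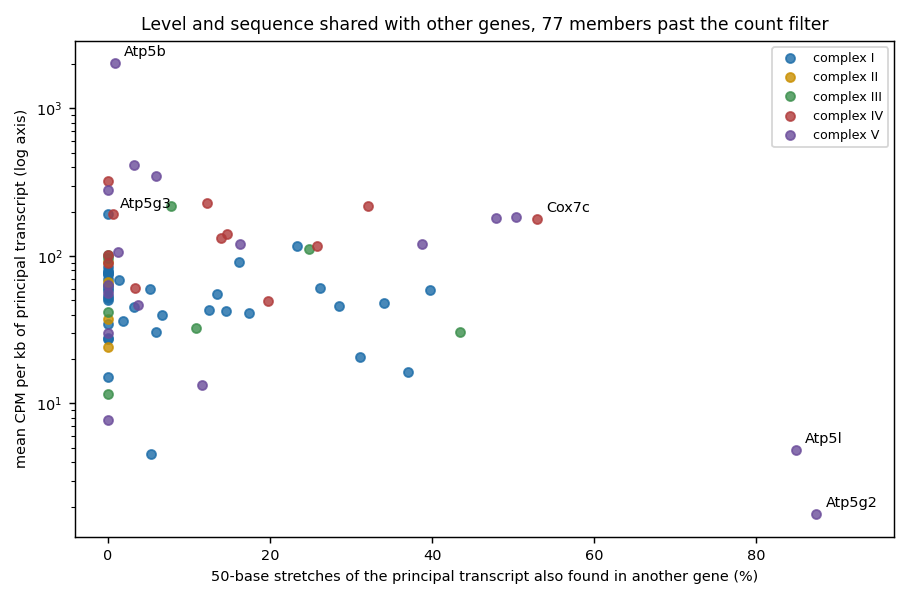
Mean level of the 77 genes past the count filter in CPM per kilobase of principal transcript (log axis) against the percentage of their 50-base stretches also found in another annotated gene; colours mark complexes. Atp5l and Atp5g2 stand apart at 84.8% and 87.4% shared with levels of 4.81 and 1.78, while the other genes show no order by shared sequence.

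Complex IV was represented by 1 isoform of nearly every subunit. The 10 genes for the forms used in most tissues (Cox4i1, Cox5a, Cox5b, Cox6a1, Cox6b1, Cox6c, Cox7a2, Cox7b, Cox7c and Cox8a) had means from 89.4 to 324 CPM per kilobase of principal transcript. Cox8a, a small membrane subunit, was the highest, with 206, 163 and 165 CPM. Cox4i1, which binds adenine nucleotides and tunes the enzyme, had 120, 105 and 96.7 CPM, and Cox6a1 had 141, 120 and 131 CPM. All 10 genes were measured well above the detection limit in every library.

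Of the 7 genes for alternative isoforms, 6 were at or near the floor. Cox4i2, known from lung, had 4, 1 and 6 counts in replicates 1, 2 and 3. The heart and skeletal muscle forms Cox7a1 and Cox8b had 3, 4 and 6 counts and 4, 13 and 2 counts, and of the forms known from testis Cox7b2 had 1, 2 and 1 counts, Cox6b2 had 0, 10 and 0, and Cox8c had 0 in all 3 libraries. These counts are too few for a fold change. A count of 0 allows up to 3 counts, or 0.256, 0.221 and 0.213 CPM in replicates 1, 2 and 3, and this covers counting error only. Pericytes, which also express Cox4i2, left little signal, with 5 of 6 marker genes detected and 15.9, 29.1 and 27.0 CPM in sum over all 6, and no Kcnj8 count in replicate 2.

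The exception among the alternative isoforms was Cox6a2 (chr7:128205435-128206387, minus strand, mm10), the form of subunit 6a known from heart and skeletal muscle and, in the mouse brain, from parvalbumin interneurons. It had 58.3, 31.3 and 34.6 CPM. It was the only muscle or testis form above 1 CPM in all 3 libraries, and its value in replicate 1 stood above the other 2. Its log2 ratio to Cox6a1 was -1.66 ± 0.38 per kilobase of union exon, and it made up 25.8%, 18.0% and 18.1% of the sum of both genes per kilobase of principal transcript. The 6 genes listed as parvalbumin interneuron markers (Pvalb, Syt2, Kcnc1, Kcnc2, Tac1 and Lhx6) were detected in every library, and summed to 1584, 1237 and 1180 CPM. Whether these genes are particular to parvalbumin cells in this material was not tested, so their sum does not measure those cells alone. Kcnc1 and Kcnc2 were the largest of the 6, with means of 528 and 369 CPM. Pvalb had 195, 117 and 100 CPM. All 6 markers were highest in replicate 1, as Cox6a2 was. So were all 12 complex IV genes past the filter and 36.5% of all genes past it. The part of these markers in the level of Cox6a2 was not tested.

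Cox7a2l had 62.1, 53.0 and 44.0 CPM. Its log2 ratio to the paralog Cox7a2 was -0.98 ± 0.18 per kilobase of union exon. Of 12 pairs of isoforms or subunits planned for comparison, 11 had reads for both genes, and each kept its sign in all 3 libraries. Pairs with a gene near the floor, such as Cox6b2 with 0, 10 and 0 counts, could hardly have shown another sign. An exact two-sided sign-flip test gave p = 0.25 for each of the 11 pairs, the smallest value that 3 libraries allow. None of the pairs could therefore reach significance.

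Complex I, the largest of the complexes, was fully represented. Its 7 nuclear core subunits, which include those that bind the flavin and the iron-sulfur clusters, had a median of 52.0 CPM per kilobase of principal transcript. The 29 accessory subunits had one of 53.8. Ndufv1, which binds the flavin and NADH, had the lowest core mean on this scale, 27.8 ± 4.27, from 39.1, 46.5 and 53.2 CPM. Ndufs1, the large subunit of the electron input arm, varied least among the core genes, with 82.9, 79.1 and 80.9 CPM. Its mean of 30.4 CPM per kilobase of principal transcript lay within the spread of Ndufv1. In replicate 3 Ndufv1 (32.1) stood above Ndufs1 (30.4) and Ndufs8 (30.9) on that scale. Per kilobase of union exon the lowest core subunit was Ndufs1, below Ndufv1 at 17.6 ± 2.69. By union exon the 3 highest genes were accessory ones, with Ndufa4 at 192 ± 16.1, Ndufb9 at 117 ± 12.2 and Ndufa8 at 78.8 ± 7.95 CPM per kilobase of principal transcript.

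The lowest complex I values depended on the length used. Ndufb2, a small membrane-arm subunit, had 25.2, 19.2 and 15.2 CPM, or 4.54 ± 1.14 CPM per kilobase of its longest principal transcript (4371 bases) and 43.6 ± 11.0 per kilobase of its shortest (455 bases). Ndufb7 had 3.78 ± 1.03 CPM per kilobase of union exon and 27.4 ± 7.47 per kilobase of principal transcript. Of the 83 genes, 4 (Atp5g1, Ndufb2, Ndufc1 and Uqcrq) had principal transcripts that differed at least 2-fold in length. Neither low rank can be separated from the choice of transcript. Ndufv3, near the flavin subunits, was low on both scales, at 7.51 ± 1.14 per kilobase of union exon and 15.1 ± 2.31 per kilobase of principal transcript.

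Complex II also belongs to the citrate cycle, as succinate dehydrogenase, and its flavin-bearing Sdha was the highest of its 4 genes. Sdha had 234, 292 and 263 CPM, and was lowest in replicate 1, unlike most of the set. The iron-sulfur subunit Sdhb had 87.0, 77.6 and 64.5 CPM. Per kilobase of union exon Sdha exceeded Sdhb by 0.90 ± 0.32 log2 units, and per kilobase of principal transcript by 0.44 ± 0.32, in all 3 libraries. Of the membrane anchors, Sdhd had 37.6 ± 6.39 and Sdhc 24.0 ± 6.11 CPM per kilobase of principal transcript.

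In complex III the small hinge subunit Uqcrh had 150, 98.1 and 109 CPM and the highest level per kilobase of principal transcript, 218 ± 50.4. Uqcrc2, a core subunit that faces the matrix, had 209, 214 and 214 CPM and a coefficient of variation of 1.39%, the lowest of the 77 genes. Its partner Uqcrc1 had 74.7, 70.9 and 59.8 CPM. The Rieske iron-sulfur protein Uqcrfs1, which carries electrons towards cytochrome c1, had 138, 143 and 119 CPM, or 97.6 ± 9.26 CPM per kilobase on both length scales. The small subunits Uqcr11, Uqcrb and Uqcrq were lower, at 32.6 ± 9.92, 30.5 ± 5.67 and 11.5 ± 1.80 CPM per kilobase of principal transcript; for Uqcrq the shortest principal transcript gave 43.3 ± 6.76.

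The study has no second condition, so the test it allows is whether a gene varied between the 3 libraries more than genes of its level did (edgeR quasi-likelihood dispersion test, Benjamini-Hochberg adjusted over 12509 genes). It called 12 genes, 0.0959% of those tested, and 0 of the 77 nuclear subunits. At an unadjusted p under 0.05 there were 9 of the 77 (11.7%), against 5.78% of all genes; 4 of the 9 belonged to complex IV. The median coefficient of variation was 15.3% among the 77 genes, at a median level of 61.1 CPM, and 15.2% among all genes past the filter, at a median of 20.1 CPM.

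Among the subunits the largest ratios in this test belonged to Atp5o, Cox6a2, Cox7b, Sdhc and Uqcrh. Atp5o, the stalk subunit that joins the head, had 198, 139 and 125 CPM, and its edgeR adjusted p was 0.58. Cox7b, an X-linked membrane subunit of complex IV, had 240, 153 and 185 CPM (edgeR adjusted p = 0.633). Sdhc, a membrane anchor of complex II, had 96.6, 73.2 and 58.1 CPM (edgeR adjusted p = 0.711). None of these passed the threshold. In each of the 5, replicate 1 was the highest library.

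This direction ran through the set. Replicate 1 was the highest library for 63 of the 77 genes, against 36.5% of all genes past the filter; replicate 2 was highest for 10 and replicate 3 for 4. By complex the count in replicate 1 was 30 of 36 in complex I, 3 of 4 in complex II, 5 of 8 in complex III, 12 of 12 in complex IV and 13 of 17 in complex V. Across the 77 genes the median deviation from a gene's own mean was 0.22 log2 units in replicate 1, -0.11 in replicate 2 and -0.10 in replicate 3, while all genes had medians within 0.01 of 0. Between replicates 2 and 3 alone the set's medians were -0.0067 and 0.0067. The genes are not independent replicates, and with 3 libraries this is a description of 1 library and not a test.

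**Figure D3:**
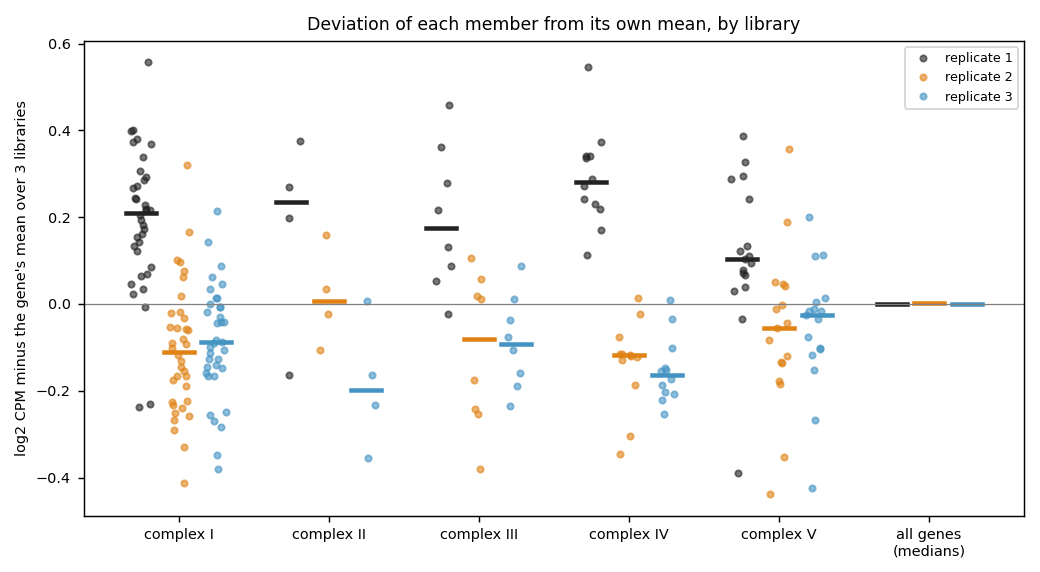
Deviation of each of the 77 genes from its own mean over the 3 libraries, in log2 CPM, by complex; points are genes, horizontal bars are medians, and the last place shows the medians of all genes past the filter. The replicate 1 bars lie above 0 in every complex, at 0.28 in complex IV and 0.10 in complex V, while the medians of all genes lie near 0.

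Within complex I, replicate 1 was highest for 27 of the 29 accessory genes and for 3 of the 7 core genes. Of the 14 genes past the filter that were highest in another library, 11 have a principal transcript of at least 1 kb. These 14 include 9 core or catalytic subunits, such as Atp5a1, Atp5b, Sdha and Uqcrc2, a grouping made after their values were seen; small subunits such as Ndufa7 and Uqcr10 are among the others. Of members with a principal transcript under 1 kb, 41 of 44 (93.2%) were highest in replicate 1, and of longer ones 22 of 33 (66.7%). All genes past the filter showed the same direction by length with smaller shares, 57.0% of 575 short genes and 35.3% of 11528 longer ones.

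**Figure D4:**
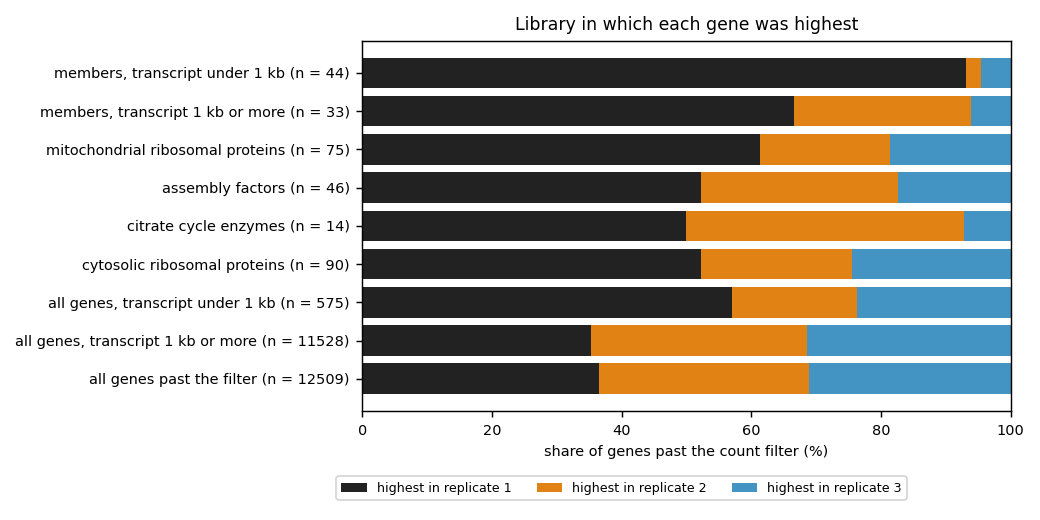
Share of genes past the count filter that were highest in replicate 1, 2 or 3, for the nuclear subunits split at a principal transcript of 1 kb, for neighbouring gene lists and for all genes. Replicate 1 takes 93.2% of the short subunit genes and 66.7% of the longer ones, against 57.0% and 35.3% of all genes of those lengths.

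Other properties of replicate 1 moved with this pattern. It had the fewest gene counts, and 19.4% of its tallied reads were not uniquely aligned, against 15.8% in replicate 2 and 13.8% in replicate 3. RNAs known to stay in the nucleus (Malat1, Meg3, Snhg11 and Neat1) summed to 10633, 3512 and 2419 CPM, and all 4 were highest in replicate 1. Of these, 3 were among the 12 genes that the variation test called. The summed levels of cell type markers also differed between libraries. Astrocyte markers summed to 1105, 1728 and 1623 CPM, mostly Slc1a2, and 4 of 6 were lowest in replicate 1, while Gfap and Aldh1l1 were highest there. Pan-neuronal markers summed to 36831, 39162 and 42768 CPM, mostly from 1 gene with a mean of 33508 CPM, and 4 of 5 were lowest in replicate 1. Microglial markers (23.1, 45.9 and 38.6 CPM) and pericyte markers (15.9, 29.1 and 27.0 CPM) were also lowest in replicate 1 in sum. Oligodendrocyte markers (558, 659 and 479 CPM) were lowest in replicate 3 in sum, although 3 of the 5 genes were lowest in replicate 1. The part of transcript length, nuclear RNA or cell content in the deviation of the nuclear subunits was not tested.

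Genes that build, feed or regulate the chain were detected almost without exception. Of 47 assembly factors present in the tables, 46 reached 1 CPM in all 3 libraries, with a median of 13.4 CPM among those past the filter, and Sco2, a copper chaperone of complex IV, had 0 counts. Their median level was 7.95 CPM per kilobase of principal transcript, against 60.6 for the subunits themselves. The 11 genes of cytochrome c, cytochrome c1 and coenzyme Q synthesis were all detected; the methyltransferase Coq5 was the highest at 157 ± 21.4 CPM, cytochrome c (Cycs) had 81.6 ± 9.75 CPM and the prenyl transferase subunit Pdss1 was the lowest at 1.84 ± 0.835 CPM. None of these genes was called in the variation test, which called 0.0959% of all genes tested.

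The citrate cycle enzymes, which supply NADH and succinate, stood closer to the subunits. All 14 were detected, with a median of 76.2 CPM per kilobase of principal transcript. Citrate synthase (Cs) had 431 ± 14.4 CPM and malate dehydrogenase (Mdh2) 392 ± 15.8 CPM, while Idh2, the NADP-dependent isocitrate dehydrogenase, was the lowest at 4.20 ± 1.56 CPM. Mitochondrial ribosomal proteins had a median of 12.1 and cytosolic ribosomal proteins one of 36.7 CPM per kilobase of principal transcript. Both lists were taken by the start of the symbol, so the 98 cytosolic rows may include genes of other kinds. Sequence shared with pseudogenes was not assessed for these lists, and genes copied in pseudogenes may be undercounted. Replicate 1 was highest for 7 of 14 citrate cycle genes, 24 of 46 assembly factors and 46 of 75 mitochondrial ribosomal protein genes. Of all genes past the filter, 36.5% were highest there.

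The 12 regulators of mitochondrial gene expression were all detected. Ppargc1a, the coactivator PGC-1alpha that drives mitochondrial biogenesis, had 953, 780 and 739 CPM. Gabpa, the DNA-binding subunit of nuclear respiratory factor 2, had 52.1, 53.6 and 107 CPM, highest in replicate 3 and not in replicate 1 (edgeR adjusted p = 0.0899). The estrogen-related receptor Esrra, a partner of PGC-1alpha, was the lowest with 3.92, 1.92 and 2.84 CPM. No regulator passed the threshold in the variation test, and 0.0959% of all genes tested did.

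The 83 genes are scattered over 19 chromosomes, with at most 9 on a single chromosome (chromosome 7). The 3 on chromosome X are Ndufa1, Ndufb11 and Cox7b. All 3 were highest in replicate 1, as most of the set was.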

How the data were processed

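Ribosome-bound RNA of mouse cerebral cortex was sequenced in 3 immunopurified libraries. The authors deposited whole-number counts per gene, 1 table for each library; STAR 2.0.0e, HTSeq and the build mm10 are named in the submitters' processing notes, while the sources used here do not give strand setting, annotation or read length. Rows of reads in no feature, ambiguous or not uniquely aligned were left out of library sizes; they made up 38.1%, 32.4% and 29.3% of tallied reads in replicates 1, 2 and 3. Intervals and floors cover counting error only, as the reads carry no molecular identifiers.

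From the deposited counts, CPM were computed with TMM factors in edgeR 4.0.16 (R 4.3.3), log2 CPM with a prior count of 2, and genes were kept by filterByExpr with a minimum count of 10. Variation between libraries was tested with an intercept-only robust quasi-likelihood fit over all 12509 genes kept, comparing each gene's dispersion with the trend, Benjamini-Hochberg adjusted at 0.05; the procedure was tested on simulated data. Lengths, coordinates and sequences came from GENCODE M21 (mm10), which matched all 83 genes (Atp5sl under its newer symbol Dmac2) and 12103 of the genes kept. Shared sequence is the share of 50-base stretches of the longest principal transcript found, on either strand, in transcripts of another annotated gene. Named genes were the 3 highest and 3 lowest per complex by CPM per kilobase, core subunits, isoform families, the 5 largest ratios in the test, genes under 1 CPM, and the highest and lowest of other lists; other genes named were chosen after their values were seen. Of the other lists, Pet117 had no row, and Ndufaf8 and Twnk were read under older symbols. 1 member that this rule covers is not described here. The members and lists were chosen with earlier results of these data known. Alternatives were another scaling (DESeq2 1.42.0 size factors), no count filter, a non-robust fit, another prior count, other lengths and leaving out each library. Replicates differed by more than sampling noise (chi-square per degree of freedom 12.3 to 28.5).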

Additional observations from a re-analysis of the deposited data

How the results depend on the processing

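No paired analysis was possible because there is only 1 group. No nuclear subunit was called in the variation test under any alternative, while the count of genes called was 66 with no count filter, 5 in the non-robust fit and 4 to 10 when 1 library was left out (4 without replicate 2). The excess of the members' median over all genes was 4.16 log2 units with no count filter, which adds low genes, and 1.59 with no division by length. Complex medians moved with the length, in the order I, II, III, IV, V: 5.49, 6.23, 5.78, 6.62 and 6.49 log2 CPM with no division, 5.72, 5.64, 5.95, 7.08 and 6.71 per kilobase of principal transcript, and 5.76, 5.64, 5.99, 7.30 and 6.82 per kilobase of the shortest principal transcript. With the longest annotated transcript complexes II to V had 5.58, 5.67, 6.75 and 6.21, and with genes sharing under 10% of their stretches complex III had 6.24 and complex V 5.76, which turns their order. The principal and shortest transcripts and the restriction by sharing were added after seeing the data. With 1 library left out, the median deviation in replicate 3 ran from -0.16 (without replicate 2) to 0.0067 (without replicate 1), where it is centred on replicates 2 and 3 alone. Of 196 values under alternatives, 149 stayed within the limits set, 46 moved and 1 reversed. With 3 libraries and no unpurified RNA, depth is not the only limit: genes under about 0.2 CPM cannot be told from absent, and genes copied in pseudogenes may be undercounted by an unknown amount.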
